A study of Mus musculus with 23 samples.

Results

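Genes of endoplasmic reticulum (ER) protein folding and of the unfolded protein response were followed across the regeneration of mouse gastrocnemius, a fast muscle of the calf. The 10 genes, defined by their symbols, are Hspa5, Hsp90b1, Pdia3, Pdia4, Pdia6, Calr, Herpud1, Dnajb9, Xbp1 and Ddit3. They were chosen with earlier results of these data known. Affymetrix arrays carry 20 probe sets for these 10 genes (4 for Xbp1, 3 for Calr, 1 each for Pdia3, Dnajb9 and Ddit3, and 2 for each of the other five), out of 20380 probe sets with 1 gene symbol. All 20 passed the minimum signal described with the processing, and the brightest probe set of each gene stands for it below unless another is named.

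The 23 arrays fall into 9 groups. Control mice, named in the titles as the controls of the lamin A line, had 2 arrays each on day 0 (muscle not injected), day 3 and day 4 after injection. Emerin KO (knockout) mice had 2 arrays on day 0 (muscle not injected) and 3 each on days 3 and 4. Lamin A/C KO mice had 3 arrays on each day, and their day 0 muscle is described as 0 d post-injection. The series sets out to stage muscle degeneration and regeneration in mice that lack either protein of the inner nuclear envelope, both of which are linked to Emery-Dreifuss muscular dystrophy. The labels used here name neither the injected agent, nor the strain, age or sex, nor whether arrays of a group came from separate animals, so p-values measure the spread between arrays. The control arrays belong to the lamin A line, so emerin KO and control may differ by line as well as by genotype, and these cannot be told apart.

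The ER folds the proteins that a cell secretes or places in its membranes. When unfolded proteins build up there, the sensors IRE1, PERK and ATF6 act through the transcription factors XBP1, ATF4 and ATF6 to raise chaperones and degradation factors, and prolonged activity raises the transcription factor CHOP. In muscle this pathway has been linked to differentiating myoblasts and to the survival of satellite cells, and secretory cells such as macrophages and fibroblasts also use it heavily.

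Several chaperone promoters carry the ER stress response element, CCAAT and CCACG spaced by any 9 bases, which binds NF-Y and ATF6. In the RefSeq promoters of build GRCm38.p6, 250 bases before the start on the gene's own strand, 4 of the 10 genes held it on either strand: Hspa5, Hsp90b1, Pdia6 and Calr. It was present in 37 of 32851 promoters of this length (0.113%). The related ERSE-II (ATTGG, any 1 base, CCACG) was present in Herpud1 and in 10 promoters in all (0.0304%). The 5 promoters are shown because each holds one of these elements and they include the gene with the largest rise in control (Pdia6), one with a lower day 0 level in emerin KO (Hspa5) and one that fell (Herpud1). Capitals mark the matches, which include TGACGTG in Hspa5 (542 promoters, 1.65%) and TGATGCAA, read on the other strand as TTGCATCA, in Herpud1 (260 promoters, 0.791%).
Hspa5, chr2:34771840-34772089, plus strand: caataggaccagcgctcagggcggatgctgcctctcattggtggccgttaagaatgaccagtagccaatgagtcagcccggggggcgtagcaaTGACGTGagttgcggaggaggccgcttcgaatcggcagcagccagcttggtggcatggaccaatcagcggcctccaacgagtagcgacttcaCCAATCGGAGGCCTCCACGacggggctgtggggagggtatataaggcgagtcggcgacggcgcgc
Hsp90b1, chr10:86705445-86705694, minus strand: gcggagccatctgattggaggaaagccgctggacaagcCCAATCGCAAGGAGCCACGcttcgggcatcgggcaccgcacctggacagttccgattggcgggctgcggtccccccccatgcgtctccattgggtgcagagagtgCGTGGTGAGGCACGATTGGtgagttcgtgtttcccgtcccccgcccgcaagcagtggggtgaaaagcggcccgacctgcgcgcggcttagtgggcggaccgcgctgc
Pdia6, chr12:17266339-17266588, plus strand: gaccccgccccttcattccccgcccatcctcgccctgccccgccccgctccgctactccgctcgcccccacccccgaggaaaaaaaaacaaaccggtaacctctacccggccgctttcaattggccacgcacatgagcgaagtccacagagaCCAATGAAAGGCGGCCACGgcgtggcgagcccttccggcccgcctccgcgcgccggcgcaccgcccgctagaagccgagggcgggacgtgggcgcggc
Calr, chr8:84846932-84847181, minus strand: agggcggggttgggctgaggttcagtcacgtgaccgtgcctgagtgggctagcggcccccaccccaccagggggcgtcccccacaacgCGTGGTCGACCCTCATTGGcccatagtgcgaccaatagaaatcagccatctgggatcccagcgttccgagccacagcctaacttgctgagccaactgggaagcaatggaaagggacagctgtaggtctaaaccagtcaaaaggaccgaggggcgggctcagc
Herpud1, chr8:94386179-94386428, plus strand: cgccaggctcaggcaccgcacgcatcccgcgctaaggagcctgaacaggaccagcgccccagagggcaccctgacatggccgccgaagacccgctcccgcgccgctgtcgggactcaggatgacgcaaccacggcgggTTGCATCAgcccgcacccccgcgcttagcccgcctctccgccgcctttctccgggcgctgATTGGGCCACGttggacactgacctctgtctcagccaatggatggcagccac

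The element of Hspa5 lies 65 to 47 bases before the start and that of Pdia6 98 to 80 bases before it. Hsp90b1 holds 2 copies, at 212 to 194 and, on the other strand, at 107 to 89 bases before the start. In Calr it lies on the other strand, 162 to 144 bases before the start. The windows of Pdia3, Pdia4, Dnajb9, Xbp1 and Ddit3 held none of these letters, and no member held TGACGTCA, found in 508 promoters (1.55%). A match describes the sequence and is not a binding site shown in this muscle.

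Facts of the whole series bear on what follows. Emd, the gene of emerin, was lower on all 8 emerin KO arrays (153 to 465) than on the 15 others (587 to 871). Lmna, the gene of lamin A/C, averaged between 61.1 and 77.8 in the lamin A/C KO groups against 890 to 3992 in the control groups. The ratio of the 3' to the 5' Gapdh control probe sets, which rises as RNA breaks down, was 2.89 to 6.09 on 5 emerin KO arrays (all 3 of day 3, and replicates 1 and 3 of day 4) and 0.822 to 1.64 on the 18 others. After injury the summed signal of 10 mature myofibre markers fell (270154 to 274920 in control on day 0, 80595 to 122553 on day 3). That of 12 macrophage markers rose from between 6394 and 8581 to between 60275 and 62275, and that of 9 regenerating myofibre markers from 3497 to 3902 to between 41435 and 43588. All 10 mature and all 9 regenerating myofibre markers passed in these directions in each genotype. Of the marker genes with a probe set, Camp of neutrophils was under a signal of 100 on every array. Fewer cells of a type and less RNA per cell cannot be told apart in whole muscle, and the part of these shifts in the results below was not tested.

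Injury raised the ER chaperones and foldases in all 3 genotypes. In control muscle 7 of the 10 genes rose from day 0 to day 3 and 2 fell, where 20.1% of all genes tested rose and 14.2% fell. The 7 were Hspa5, Hsp90b1, Pdia3, Pdia4, Pdia6, Calr and Xbp1, the 2 that fell were Herpud1 and Dnajb9, and Ddit3 did not pass. In emerin KO muscle 6 rose and 2 fell (23.9% and 22.2% of all genes), and in lamin A/C KO muscle 6 rose and 1 fell (23.4% and 19.6%). The median log2 difference of the 10 genes was 0.77, 1.26 and 0.75 in control, emerin KO and lamin A/C KO, beside 0.085, -0.081 and -0.075 over all genes. From day 0 to day 4 the counts were 6 up and 2 down in control (19.5% and 14.3%), 6 and 2 in emerin KO (23.5% and 20.8%), and 6 and 1 in lamin A/C KO (21% and 18.2%).

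**Figure D1:**
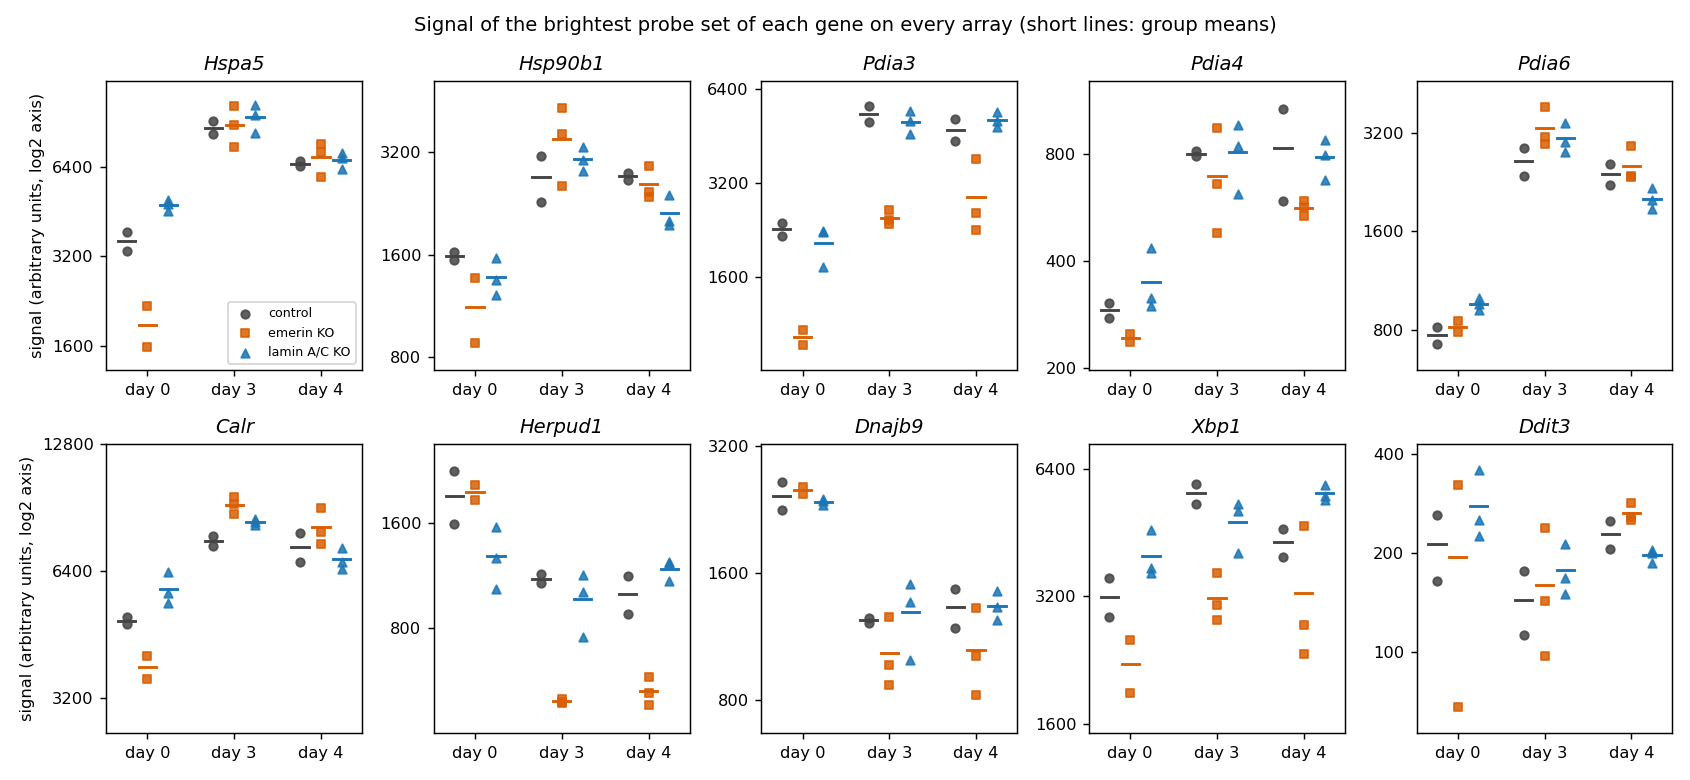
Signal of the brightest probe set of each gene on every array (log2 axis, arbitrary units, each panel with its own range), by day and genotype, with short lines for group means of 2 or 3 arrays. The chaperones and foldases sit higher on days 3 and 4 than on day 0, Dnajb9 lower, Herpud1 lower in control and emerin KO, and the genotypes of Ddit3 overlap on days 0 and 3.

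Hspa5 encodes BiP, the HSP70 chaperone of the ER that also keeps the stress sensors inactive. Its signal was 3874 and 3342 on the control day 0 arrays, 8245 and 9074 on day 3, and 6418 and 6664 on day 4. The emerin KO arrays read 2178 and 1594 on day 0, then 8799, 10243 and 7469 on day 3 and 5901, 7162 and 7642 on day 4. The lamin A/C KO arrays read 4944, 4795 and 4534, then 10336, 8307 and 9539, then 7124, 6280 and 6841. Every injured array lay above every day 0 array, the emerin KO day 0 arrays were the lowest of the 23, and the 3 genotypes overlapped on days 3 and 4. The log2 rise to day 3 was 1.26 ± 0.17 (SE, adjusted p = 4.59e-06) in control, 2.21 ± 0.16 (adjusted p = 1.56e-10) in emerin KO and 0.97 ± 0.14 (adjusted p = 5.86e-06) in lamin A/C KO. In the order of its 9 group means, 4 of the 8 neighbouring pairs overlapped. The 4 steps without overlap were from control day 3 to emerin KO day 4, and down from control day 4 through lamin A/C KO, control and emerin KO day 0.

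Hsp90b1 encodes GRP94, the HSP90 chaperone of the ER. Its signal was 1629 and 1548 on control day 0 and 3121 and 2281 on day 3. The emerin KO values were 881 and 1367, then 2553, 3620 and 4315, and in lamin A/C KO 1218, 1564 and 1351, then 3037, 2829 and 3319. The days did not overlap within a genotype, and the genotypes overlapped on day 3. The log2 rise was 0.74 ± 0.22 (adjusted p = 0.011) in control, 1.61 ± 0.20 (adjusted p = 6.62e-07) in emerin KO and 1.14 ± 0.18 (adjusted p = 1.84e-05) in lamin A/C KO. Without control day 0 replicate 2 or control day 3 replicate 1 the control rise did not pass, and the day 4 rise did not without control day 0 replicate 2 or day 4 replicate 1. On day 4 the log2 differences from day 0 were 0.76, 1.2 and 0.61, all past the threshold. The lamin A/C KO day 4 call was lost without its day 4 replicate 1 (0.52, adjusted p = 0.051).

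Pdia6, an ER disulfide isomerase, had the largest rise of the 10 genes in control and in lamin A/C KO on day 3. Its signal was 722 and 815 on control day 0, 2887 and 2361 on day 3, and 2213 and 2566 on day 4. In emerin KO it was 848 and 786, then 2966, 3845 and 3109, then 2359, 2927 and 2345, and in lamin A/C KO 919, 1003 and 958, then 2800, 2998 and 3441, then 1994, 2170 and 1867. The lowest injured array was above the highest day 0 array in each genotype. The mean log2 rise to day 3 was 1.73 ± 0.16 in control (3.31-fold, adjusted p = 3.29e-08), 1.97 ± 0.15 in emerin KO and 1.64 ± 0.13 in lamin A/C KO. Pdia6 was also the single member that moved between days 3 and 4: it fell by 0.60 ± 0.13 in lamin A/C KO (adjusted p = 0.016, where 2.04% of all genes passed). That call was lost without lamin A/C KO day 3 replicate 3 or day 4 replicate 1 or 3. In control and emerin KO no member passed between days 3 and 4 with limma (0.0448% and 1.17% of all genes). There 1 and 4 members had an unadjusted p under 0.05, beside 531 and 1243 of 11164 genes. The second probe set of Pdia6, 1430983_at, was dim (139 to 280 over all arrays) and did not pass on day 3 in any genotype. Its mean on days 0 and 3 was 168 and 184 in control, 265 and 197 in emerin KO, and 254 and 190 in lamin A/C KO.

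Pdia3, the disulfide isomerase ERp57 that works on glycoproteins together with calreticulin, had 1 probe set. Its signal was 2383 and 2177 on control day 0, 5001 and 5648 on day 3, and 5112 and 4376 on day 4. In lamin A/C KO it was 2226, 1730 and 2246, then 4606, 5440 and 5051, then 4833, 5383 and 5054. Emerin KO arrays were at 1091 and 970.5, then 2378, 2443 and 2629, then 2260, 3823 and 2578. The emerin KO arrays were the lowest on each of the 3 days. Of the 6 injured emerin KO arrays, 5 read 2260 to 2629, and day 4 replicate 2, the one with a Gapdh ratio under 2, read 3823. The log2 rise to day 3 was nonetheless close in size, at 1.21 ± 0.19 in control, 1.24 ± 0.17 in emerin KO and 1.28 ± 0.15 in lamin A/C KO. The difference between the emerin KO and control rises was 0.03 (95% interval -0.50 to 0.56, adjusted p = 0.96).

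Pdia4, the isomerase ERp72, rose from 277 and 305 on control day 0 to 814 and 789 on day 3. In emerin KO it was 248 and 236, then 479, 657 and 945, and in lamin A/C KO 313, 298 and 434, then 843, 967 and 618. No day 0 array reached the lowest day 3 array. The log2 rise was 1.37 ± 0.27, 1.35 ± 0.25 and 1.14 ± 0.22 in control, emerin KO and lamin A/C KO (adjusted p = 0.00037, 9.91e-05 and 0.00022). Its dimmer probe set, 1450620_at, did not pass in any genotype on day 3.

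Calr encodes calreticulin, a calcium-binding lectin chaperone of the ER. Its signal was 4973 and 4799 on control day 0 and 7337 and 7750 on day 3. Emerin KO muscle had 3544 and 4022, then 8760, 9577 and 9219, and in lamin A/C KO 5375, 5682 and 6371, then 8208, 8377 and 8514. Day 3 arrays lay above day 0 arrays in every genotype. By this brightest probe set, 1417606_a_at, the emerin KO group moved from the lowest on day 0 to the highest on day 3. The log2 rise was 0.62 ± 0.13 in control (adjusted p = 0.00080), 1.27 ± 0.12 in emerin KO (adjusted p = 1.51e-08) and 0.53 ± 0.11 in lamin A/C KO (adjusted p = 0.00042). The difference between the emerin KO and control rises, 0.65 ± 0.18, did not pass (adjusted p = 0.057). On day 4 the rise passed in control (0.57) and emerin KO (1.10) and not in lamin A/C KO (0.23, adjusted p = 0.0999). By 1456170_x_at and 1433806_x_at the emerin KO mean was the lowest on day 3 (6418 and 5991). Control was at 6469 and 6117 and lamin A/C KO at 6855 and 6317. From day 0 to day 3 the 1456170_x_at mean went from 3332 to 6469 in control and from 3228 to 6418 in emerin KO.

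**Figure D2:**
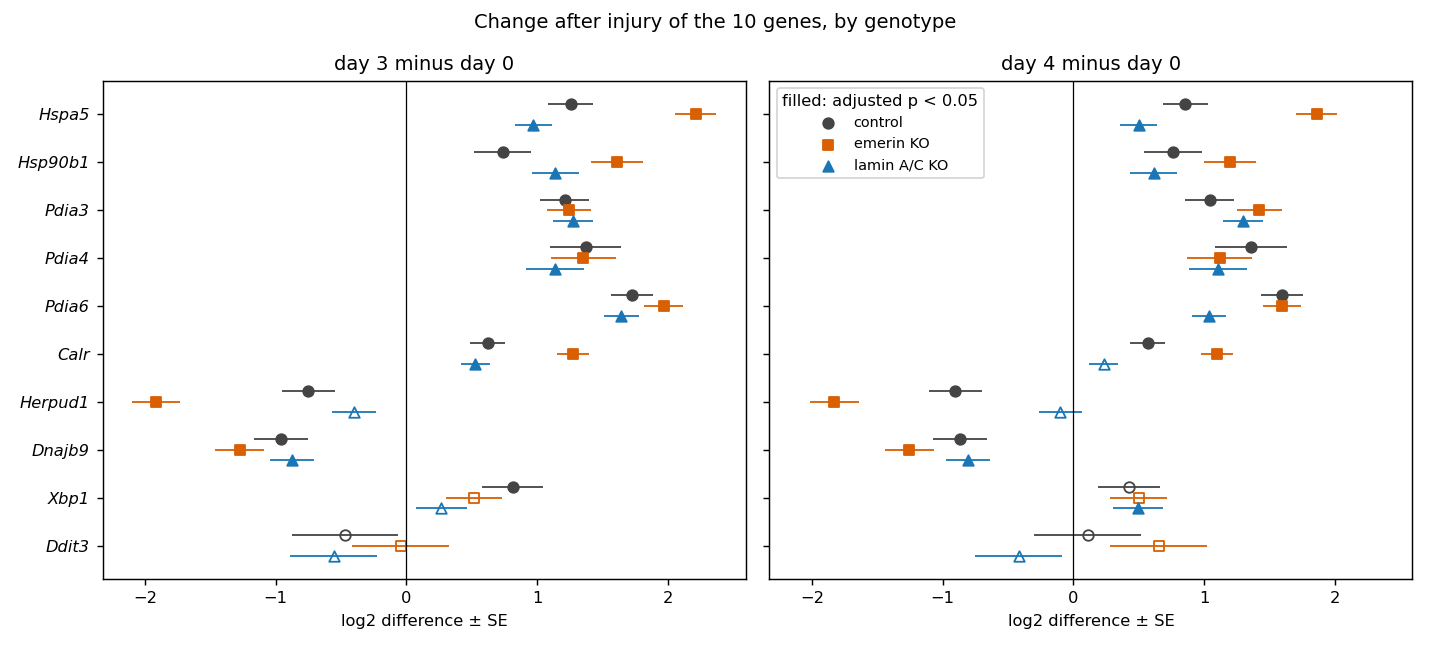
Log2 difference from day 0 (± SE from the fit over all 23 arrays) of the 10 genes on day 3 and day 4 in control, emerin KO and lamin A/C KO, with filled symbols past the threshold. Hspa5 rose by 1.26, 2.21 and 0.97 on day 3, and Herpud1 and Dnajb9 lie left of 0 in all 3 genotypes.

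Herpud1 and Dnajb9 moved the other way. Herpud1 is an ER membrane protein of the degradation machinery, and its promoter above carries ERSE-II and the ATF4 composite element. Its signal was 1588 and 2248 on control day 0, 1079 and 1142 on day 3, and 878 and 1130 on day 4. Emerin KO muscle had 2056 and 1863, then 490.2, 502 and 494, then 483, 583 and 525, and in lamin A/C KO 1270, 1557 and 1037, then 1135, 1015 and 755, then 1092, 1228 and 1241. All 6 injured emerin KO arrays lay below every other array, while days overlapped in lamin A/C KO. Herpud1 fell by 0.75 ± 0.20 on the log2 scale to day 3 in control (adjusted p = 0.0057) and by 1.92 ± 0.19 in emerin KO (adjusted p = 1.71e-08). The control fall did not pass without control day 0 replicate 2. In lamin A/C KO neither the day 3 difference (-0.40, adjusted p = 0.056) nor the day 4 difference (-0.10, adjusted p = 0.67) passed.

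The second Herpud1 probe set, 1448185_at, gave a smaller difference in emerin KO. It was 1312 and 917 on day 0 and 599, 647 and 756 on day 3, a log2 difference of -0.70 ± 0.26 (adjusted p = 0.033 over all probe sets). In control it was 1171 and 1166, then 563 and 927, a difference of -0.67 ± 0.28 (adjusted p = 0.081). In lamin A/C KO its mean was 933 on day 0, 634 on day 3 and 567 on day 4. There the day 4 arrays (486 to 616) lay below those of day 0 (694 to 1089), unlike by the brighter probe set. The 2 probe sets had the same sign, and injured emerin KO was lower than injured control by 1435626_a_at alone.

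Dnajb9, the co-chaperone ERdj4 of BiP and a known XBP1 target, was 2628 and 2252 on control day 0 and 1251 and 1218 on day 3. Emerin KO arrays were at 2561 and 2464, then 868, 968 and 1258, and in lamin A/C KO 2363, 2394 and 2312, then 1505, 1367 and 997. Day 3 lay below day 0 without overlap in each genotype, and the genotypes overlapped on day 3. It fell by 0.96 ± 0.21 in control (adjusted p = 0.00081), by 1.28 ± 0.19 in emerin KO (adjusted p = 7.19e-06) and by 0.87 ± 0.17 in lamin A/C KO (adjusted p = 0.00020). With the Gapdh ratio as a covariate the emerin KO day 3 difference was -0.42 and did not pass (adjusted p = 0.22). Over the 9 group means, its Pearson correlation with Pdia6 was -0.97, while Hspa5 and Calr correlated at 0.97. These groups share arrays and the injury contrast, so the correlations are descriptions.

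Xbp1 encodes the transcription factor that IRE1 activates by splicing its mRNA, and Ddit3 encodes CHOP. The brightest Xbp1 probe set, 1420886_a_at, was 3536 and 2855 on control day 0, 5311 and 5908 on day 3, and 4627 and 3963 on day 4. In emerin KO it was 2530 and 1894, then 2808, 3059 and 3632, then 2737, 4699 and 2333, and in lamin A/C KO 4589, 3640 and 3734, then 5291, 5089 and 4062, then 5408, 5885 and 5546. Day 3 lay above day 0 without overlap in control and emerin KO and overlapped it in lamin A/C KO. The control day 3 rise (0.81 ± 0.24, adjusted p = 0.0096) and the lamin A/C KO day 4 rise (0.50 ± 0.19, adjusted p = 0.046) passed. In emerin KO the differences on days 3 and 4 were 0.52 and 0.50 (adjusted p = 0.055 and 0.065). Both passed with the Gapdh covariate (1.66 and 1.23), as did day 4 without the arrays above a ratio of 2 (1.09). Leaving out 1 array also brought them past the threshold: emerin KO day 0 replicate 1 or day 4 replicate 3 on both days, and day 3 replicate 1 or day 4 replicate 2 on day 3. The control rise was lost without control day 0 replicate 2 or control day 3 replicate 2. That of lamin A/C KO was lost in 16 of 35 alternatives, among them leaving out any of the 3 lamin A/C KO day 4 arrays.

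A second Xbp1 probe set, 1437223_s_at, rose clearly in all 3 genotypes. It was 1699 and 1840, then 3811 and 4256 in control, 1552 and 1551, then 3874, 5790 and 4855 in emerin KO, and 1989, 1873 and 1524, then 3999, 4177 and 3750 in lamin A/C KO. No day 3 array overlapped a day 0 array. The log2 rises were 1.17 ± 0.18, 1.6 ± 0.17 and 1.14 ± 0.15 (adjusted p = 3.16e-05, 7.17e-08 and 2.22e-06 over all probe sets). Of the other two Xbp1 probe sets, 1420011_s_at rose in emerin KO (0.67 ± 0.19, adjusted p = 0.0059) and did not pass in control or lamin A/C KO, and 1420012_at passed in none. The arrays do not separate spliced from unspliced Xbp1 here.

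Ddit3 passed in none of the 22 comparisons. Its signal was 165 and 262 on control day 0 and 176 and 113 on day 3. In emerin KO it was 322 and 68.4 on day 0 and 238, 143 and 97.9 on day 3, and in lamin A/C KO 358, 252 and 225, then 168, 214 and 151. Day 0 and day 3 overlapped in control and emerin KO and not in lamin A/C KO. The 95% interval of the log2 difference on day 3 ran from -1.31 to 0.38 in control, from -0.82 to 0.73 in emerin KO and from -1.25 to 0.14 in lamin A/C KO. The emerin KO day 0 arrays lay far apart and decide its calls. Without replicate 2 the day 3 difference was -0.95 (adjusted p = 0.033). Without replicate 1 the day 4 difference was 1.56 (adjusted p = 0.0011), and emerin KO minus lamin A/C KO on day 0 was -1.60 (adjusted p = 0.0061).

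Tested probe set by probe set, 11 of the 20 rose and 2 fell in control on day 3 (31.3% of 17771 probe sets passed in either direction). In emerin KO 12 rose and 3 fell (43.9%), and in lamin A/C KO 10 rose and 1 fell (40.2%). Hsp90b1 was measured by a second probe set, 1438040_a_at, which differed from the first in emerin KO. It was 1150 and 909.8 on control day 0 and 1774 and 1913 on day 3, against 501 and 652, then 609.8, 931 and 949 in emerin KO. The log2 rise in emerin KO was 0.49 ± 0.19 (adjusted p = 0.041) by this probe set and 1.61 by the first.

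Emerin KO muscle differed from control muscle in a few of the 10 genes, each time as a lower signal. On day 0 Hspa5 (-0.94 ± 0.17, adjusted p = 0.0024) and Pdia3 (-1.12 ± 0.19, adjusted p = 0.0010) were lower, where 3.26% of all genes passed. On day 3 Pdia3 (-1.09 ± 0.17, adjusted p = 0.00022), Herpud1 (-1.12 ± 0.19, adjusted p = 0.00036) and Xbp1 (-0.82 ± 0.22, adjusted p = 0.011) were lower, beside 16.3% of all genes. On day 4 Pdia3 (-0.74 ± 0.17, adjusted p = 0.015) and Herpud1 (-0.88 ± 0.19, adjusted p = 0.0081) were lower, beside 5.87%. The day 3 call of Xbp1 was lost without control day 3 replicate 2. On day 4 Pdia3 did not pass without control replicate 1 or emerin KO replicate 1 or 3, nor Herpud1 without control replicate 2.

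On day 0 the Gapdh ratios were 0.914 and 1.34 in emerin KO and 0.829 to 0.963 in the other groups. Given the Gapdh covariate, Hspa5 differed by -0.95 (adjusted p = 0.0026) and Pdia3 by -1.03 (adjusted p = 0.00056). With only the 4 arrays compared in the fit, neither passed, and Hspa5 did not pass without control day 0 replicate 1 or emerin KO day 0 replicate 2. The second Hspa5 probe set, 1427464_s_at, was 1979 and 1570 in control and 806 and 677 in emerin KO, a log2 difference of -1.22 ± 0.18 (adjusted p = 0.00043). On the same day 0 arrays the summed signal of fibroblast markers was 36543 and 55299 in emerin KO against 76430 and 87701 in control, and 5 of the 9 tested markers were lower. The part of fibroblast content in the day 0 difference was not tested. Of the 9 regenerating myofibre markers 3 were lower and 0 higher (median -0.56), and their summed signal was 2339 to 2813 in emerin KO and 3497 to 3902 in control. Of 6 neutrophil markers 1 was higher, of 10 plasma and B cell markers 1 was higher and 1 lower, and none of the 12 macrophage, 10 mature myofibre, 5 endothelial and 3 T and NK cell markers passed. The part of these markers was not tested.

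The day 3 and day 4 comparisons involve the emerin KO arrays with high Gapdh ratios. Once the fit held the Gapdh ratio, 0 members passed on day 3 and on day 4. The share of all genes passing in that fit is not set beside this count, which is therefore not a result about these genes alone. The ratio was 3.62 to 6.09 on the emerin KO day 3 arrays, so it is largely bound to that group. The day 3 values in that fit were -0.42 for Pdia3 (adjusted p = 0.75) and 0.43 for Xbp1 (adjusted p = 0.66). Herpud1 kept most of its size, at -0.98 and -0.80 on these days (adjusted p = 0.34 and 0.29). On day 4, without the arrays above a ratio of 2, the emerin KO group is replicate 2 alone, taken to vary like the other groups. Pdia3 then differed by -0.30 (adjusted p = 0.73) and Herpud1 by -0.74 (adjusted p = 0.35). That replicate had the highest signal of its group for Pdia3 (3823), Xbp1 (4699), Dnajb9 (1321) and Herpud1 (583). All 3 emerin KO day 3 arrays had a ratio above 2, so on day 3 RNA quality and genotype cannot be told apart. Cell type markers differed from control too. On day 3, 4 of 9 fibroblast and 3 of 10 mature myofibre markers were lower and 0 higher. Of all genes 8.92% were lower and 7.38% higher. Of 9 regenerating myofibre markers 4 were lower and 2 higher, and of 12 macrophage markers 1 and 3. On day 4, 3 fibroblast and 1 mature myofibre markers were lower (3.29% of all genes), and 3 regenerating myofibre and 2 macrophage markers higher (2.58%). The part of these markers was not tested.

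**Figure D3:**
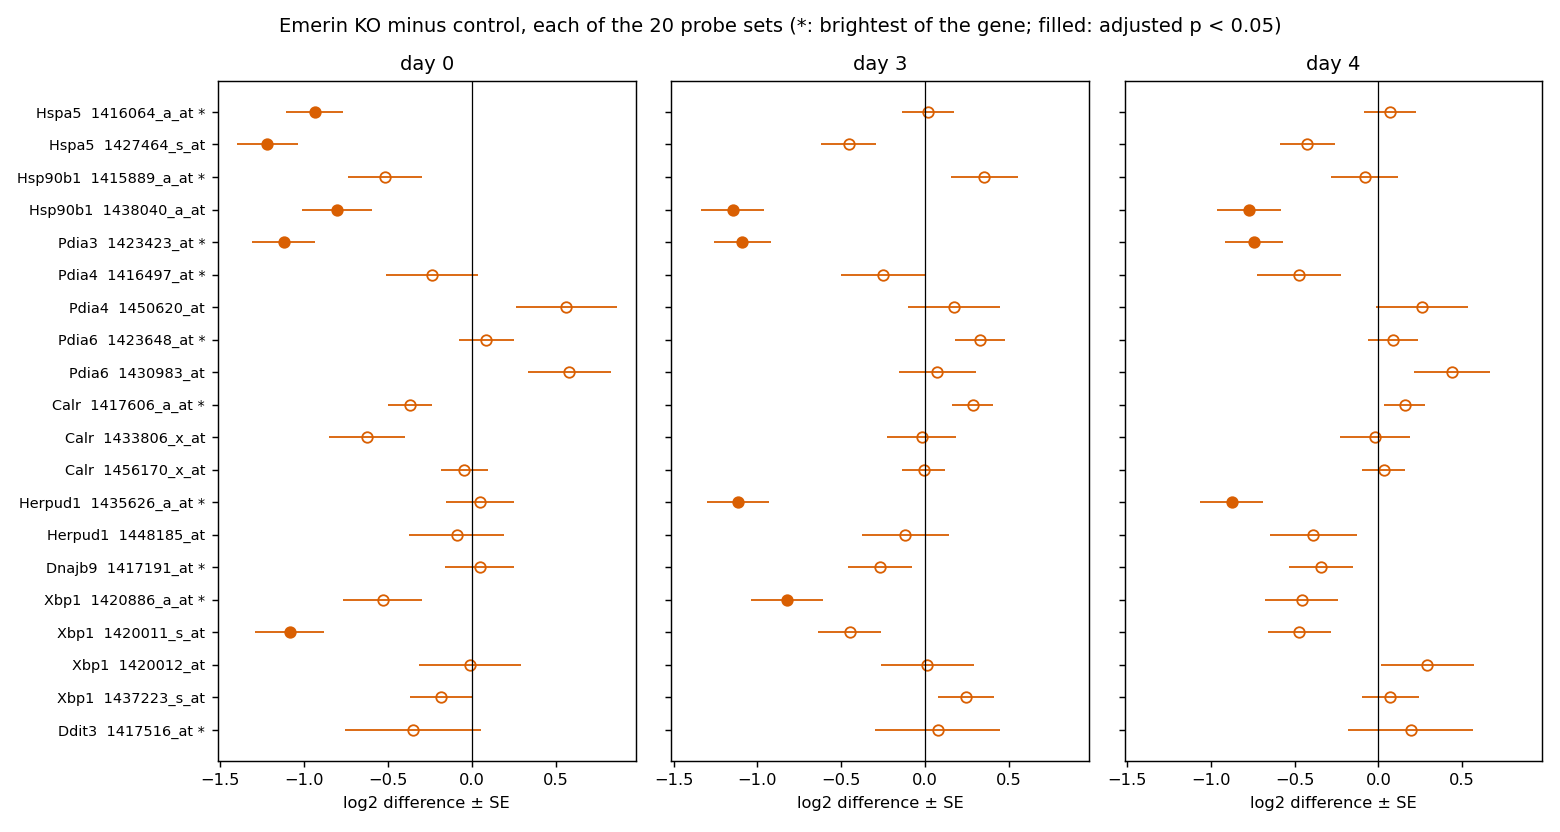
Log2 difference between emerin KO and control (± SE) of each of the 20 probe sets on days 0, 3 and 4, with filled symbols past the threshold over 17771 probe sets and an asterisk at the brightest probe set of each gene. Filled points lie left of 0 on every day, and the 2 probe sets of Hsp90b1 differ on day 3 (0.35 and -1.15).

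By probe set, 5, 4 and 3 of the 20 were lower in emerin KO on days 0, 3 and 4 (2.75%, 16.2% and 5.35% of all probe sets passed), and none was higher. Probe sets of one gene split on day 3. Hsp90b1 was at 0.35 by 1415889_a_at and -1.15 by 1438040_a_at (adjusted p = 0.00036), Herpud1 at -1.12 by 1435626_a_at and -0.12 by 1448185_at, and Xbp1 at -0.82 by 1420886_a_at and 0.24 by 1437223_s_at. The 3 Calr probe sets lay between -0.02 and 0.28 on that day and none passed. Where each probe set lies along its transcript was not analysed here.

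The injury response itself differed between emerin KO and control for 2 of the 10 genes on day 3, where 2.64% of all genes passed. Hspa5 rose more in emerin KO by 0.96 ± 0.23 (adjusted p = 0.030), from its lower day 0 level to an overlapping day 3 level. By 1427464_s_at the emerin KO arrays lay below those of control on day 3 (1902 to 2751 against 2773 to 3168). On day 4 they were at 1547 to 2103 against 2501 to 2535. With the mean of both Hspa5 probe sets the day 3 difference between the rises was 0.86 (adjusted p = 0.051). Herpud1 fell more, the difference being -1.16 ± 0.27 (adjusted p = 0.026). By its second probe set, 1448185_at, the difference was -0.03 (adjusted p = 0.98 over all probe sets), and with the mean of both probe sets it was -0.60 (adjusted p = 0.28). On day 4 the difference for Hspa5 was 1.01 ± 0.23 (adjusted p = 0.0499, beside 0.573% of all genes), a call that 27 of 35 alternatives ended. With the Gapdh ratio as a covariate the day 3 differences were 0.87 for Hspa5 (adjusted p = 0.33) and -1.05 for Herpud1 (adjusted p = 0.32). Each of these day 3 calls was lost without any 1 of 7 arrays: for Hspa5 both control arrays of days 0 and 3, emerin KO day 0 replicate 2 and emerin KO day 3 replicates 1 and 2. For Herpud1 they were control day 0 replicate 1, both control day 3 arrays, both emerin KO day 0 arrays and emerin KO day 3 replicates 1 and 2.

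Lamin A/C KO muscle did not differ from control muscle in any of the 10 genes by limma on day 0, 3 or 4, where 0.896%, 0.0269% and 0.0448% of all genes passed. At an unadjusted p under 0.05 there were 3, 0 and 0 members, beside 1152, 809 and 540 of all 11164 genes. The 3 were Hspa5 (0.40), Pdia6 (0.31) and Herpud1 (-0.56) on day 0. For Hspa5 the 95% interval spanned 0.07 to 0.72 (day 0) and -0.21 to 0.44 (day 3). Against control on day 0, 4 of 9 regenerating myofibre and 3 of 12 macrophage markers were higher and 0 lower. Of all genes 0.752% were higher. The summed regenerating myofibre signal was 6756 to 7495 in lamin A/C KO and 3497 to 3902 in control. Day 0 muscle is described as 0 d post-injection in lamin A/C KO and as not injected in control. The part of these differences, also in rises from day 0, was not tested. The difference of the injury change from control passed for no member on day 3 or day 4 (0.17% and 0.206% of all genes). At an unadjusted p under 0.05 it held 0 and 2 members, beside 716 and 866 of the 11164 genes. Compared with lamin A/C KO, emerin KO was lower on day 0 in Hspa5 (-1.34), Pdia3 (-0.97), Xbp1 (-0.85) and Calr (-0.61), beside 6.3% of all genes. In that comparison 8 of 9 regenerating myofibre markers (median -1.72), 6 of 9 fibroblast markers and 3 of 12 macrophage markers were also lower, and their part in it was not tested. The summed regenerating myofibre signal was 2339 to 2813 in emerin KO and 6756 to 7495 in lamin A/C KO. On day 3 emerin KO was lower in Pdia3 (-1.01) and Herpud1 (-0.90), beside 9.95%, and on day 4 in Herpud1 (-1.12), Pdia3 (-0.85) and Xbp1 (-0.84), beside 16.4%. Fitted on the mean of all probe sets, Herpud1 on day 3 was lost (-0.41, limma adjusted p = 0.13). So was Xbp1 on days 0 and 4 (-0.38 and -0.30, limma adjusted p = 0.094 and 0.087). By 1448185_at, Herpud1 averaged 667 in emerin KO and 634 in lamin A/C KO on day 3, and 537 and 567 on day 4. Xbp1 on day 0 was also lost without emerin KO day 0 replicate 2 or lamin A/C KO day 0 replicate 1. With the Gapdh covariate none of the day 3 and day 4 calls passed, a count given without the share of all genes in that fit. Herpud1 was then at -0.80 on day 3 and -1.02 on day 4, Pdia3 at -0.49 and -0.35, and Xbp1 on day 4 at 0.082. The comparisons of emerin KO with either group share the emerin KO arrays.

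The other genes of the pathway were followed in 5 lists. Counts are to be read beside the shares of all genes on day 3, which were 20.1% up and 14.2% down in control, 23.9% and 22.2% in emerin KO, and 23.4% and 19.6% in lamin A/C KO. Of 34 other ER chaperones and foldases tested, 23 rose and 0 fell in control on day 3, 22 rose and 1 fell in emerin KO, and 29 rose and 0 fell in lamin A/C KO. The median log2 difference was 0.76, 0.95 and 0.83. The largest in control were the prolyl isomerase Ppib (1.65 ± 0.18), the calcium-binding Rcn1 (1.57 ± 0.23) and the isomerase Pdia5 (1.51 ± 0.21). In emerin KO they were Manf (2.49 ± 0.20), Fkbp11 (2.37 ± 0.22) and Rcn1 (2.03 ± 0.21), and in lamin A/C KO Rcn1 (1.83 ± 0.19), Manf (1.81 ± 0.17) and Fkbp2 (1.64 ± 0.14). Of the list for entry into the ER, glycosylation and export, 21 of 38 rose and 4 fell in control on day 3, 20 and 7 in emerin KO, and 24 and 4 in lamin A/C KO. Sec61a1 of the translocon (1.64 ± 0.24) and Stt3a of the oligosaccharyltransferase (1.61 ± 0.20) rose in control, and Sar1b, a GTPase of export vesicles, fell by 2.60 ± 0.31.

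Degradation and signalling formed lists of their own. Of 21 genes of ER-associated degradation, 6 rose and 2 fell in control, 6 and 3 in emerin KO, and 9 and 3 in lamin A/C KO. Edem1, a mannose-trimming factor of that pathway, had the largest change in each genotype (3.48 ± 0.23, 3.46 ± 0.21 and 3.10 ± 0.19). Os9, a lectin that hands proteins to degradation, rose by 0.99, 1.42 and 1.23. Ngly1, which removes sugars from extracted proteins, fell in all 3 genotypes (-0.995, -1.71 and -0.89). Of 15 sensors and transducers, 6 rose and 0 fell in control, 5 and 1 in emerin KO, and 7 and 0 in lamin A/C KO. Eif2ak3, the gene of PERK, rose by 1.14 ± 0.17, 1.001 ± 0.15 and 0.87 ± 0.14, the pro-apoptotic Bak1 by 1.24, 2.04 and 1.34, and the phosphatase subunit Ppp1r15b by 0.97, 0.97 and 1.01.

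The list of PERK, ATF4 and CHOP output holds targets of the branch that ends in Ddit3. Of 18 genes, 6 rose and 2 fell in control, 3 and 3 in emerin KO, and 4 and 3 in lamin A/C KO, with medians of -0.006, 0.14 and 0.066. The lipoprotein receptor Vldlr fell in all 3 genotypes (-2.88, -2.78 and -3.15). Txnip, an inhibitor of thioredoxin, fell too (-2.02, -1.83 and -1.81), and the amino acid transporter subunit Slc3a2 rose by 1.38, 2.17 and 1.75. Ddit4, an inhibitor of mTORC1, rose by 1.62 ± 0.24 in control and by 0.71 ± 0.19 in lamin A/C KO, and was at 0.06 ± 0.22 in emerin KO.

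**Figure D4:**
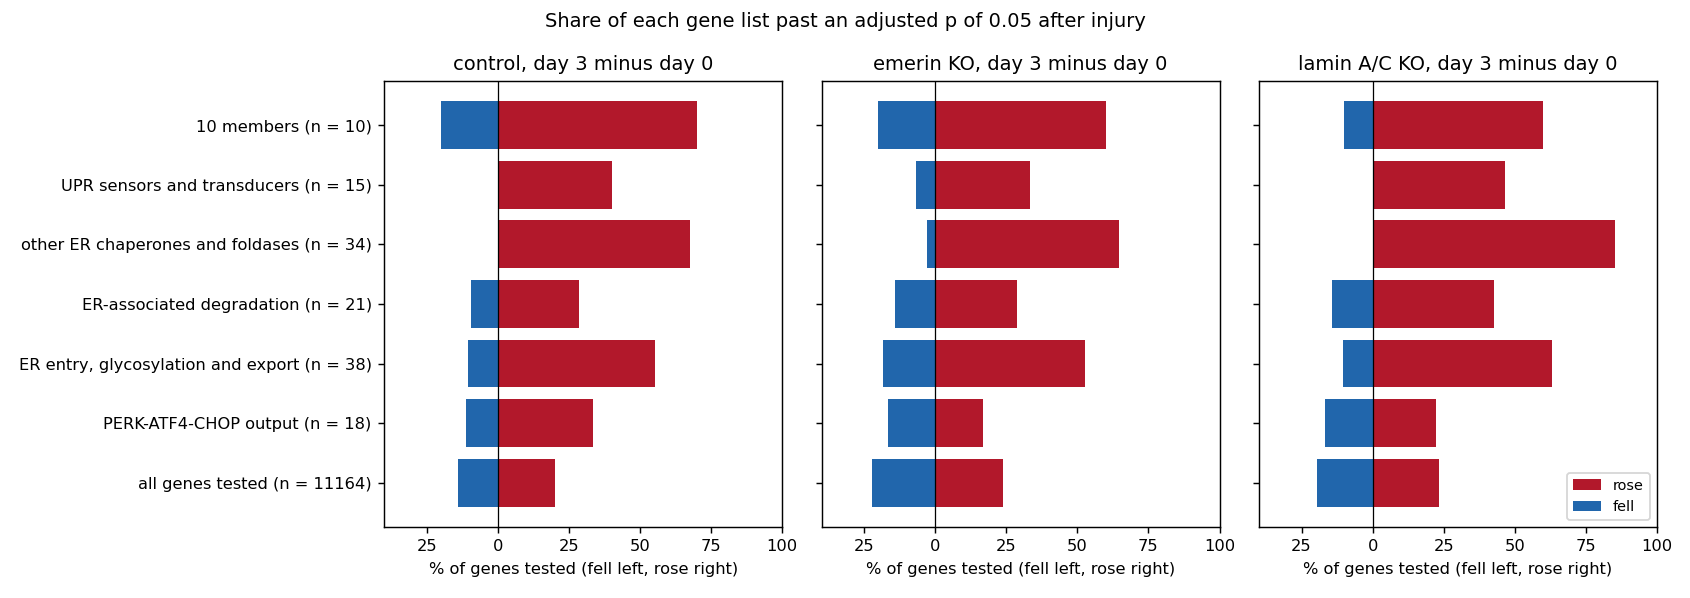
Percent of the genes tested in each list that rose (right) or fell (left) past the threshold from day 0 to day 3, in control, emerin KO and lamin A/C KO, with all 11164 genes as the last bar. The other ER chaperones and foldases rose in 23, 22 and 29 of 34, while the output of PERK, ATF4 and CHOP rose in 6, 3 and 4 of 18.

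Of all genes on day 4, 19.5% rose and 14.3% fell in control, 23.5% and 20.8% in emerin KO, and 21% and 18.2% in lamin A/C KO. Among the 34 other ER chaperones and foldases, 20 rose and 0 fell in control, 22 and 0 in emerin KO, and 25 and 0 in lamin A/C KO. For the 18 genes of PERK, ATF4 and CHOP output these counts were 4 and 2, 3 and 3, and 3 and 4.

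Emerin KO minus control reached these lists too. On day 0, 7 of the 34 other chaperones and foldases were lower and 0 higher, led by Fkbp11 (-1.92 ± 0.24), Rcn3 (-1.50 ± 0.21) and Rcn1 (-1.07 ± 0.23). On day 0, 6 of the 38 genes of entry, glycosylation and export were lower, among them Kdelr3 (-0.91), Ssr1 (-0.80) and Kdelr2 (-0.76), a retrieval receptor, a translocon-associated subunit and a second retrieval receptor. On day 3, 9 chaperones and foldases were lower and 0 higher, and 16 genes of entry and export were lower and 1 higher. On day 4 the counts were 3 lower and 2 higher, and 6 lower and 1 higher, with Erp29, an ER luminal chaperone, among the higher (1.01 ± 0.23). Of all genes, 2.03% were lower on day 0, 8.92% on day 3 and 3.29% on day 4, and 1.23%, 7.38% and 2.58% were higher. The day 3 and day 4 counts come from arrays with the high Gapdh ratios named above. On day 0, 2 of the 18 output genes were higher and 0 lower: Chac1, a glutathione-degrading ATF4 target (3.08 ± 0.38, adjusted p = 4.22e-05), and Ddit4 (1.19 ± 0.24, adjusted p = 0.0048). Their injury changes differed from those of control by -3.07 ± 0.51 and -1.56 ± 0.32 on day 3 (adjusted p = 0.0029 and 0.012). Ddit3 did not pass in that day 0 comparison.

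Other genes with an ER stress response element within 250 bases of the start gave a mixed picture. There were 31, chosen after the members' promoters had been read, and 11 were tested. Of these, 4 rose and 1 fell in control on day 3, 6 and 2 in emerin KO, and 5 and 1 in lamin A/C KO, with medians of 0.57, 0.66 and 0.34. Canx, the membrane-bound relative of calreticulin, rose by 0.71, 0.82 and 0.77, Creld2 by 0.90, 1.2 and 1.34, and Dnajc3, an inhibitor of PERK, by 0.76, 0.68 and 0.65. These genes are also on the list of other ER chaperones and foldases and were counted there. Acacb, an enzyme of fatty acid metabolism in muscle, fell (-3.64, -3.52 and -4.25).

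Genes other than the members followed Hspa5 closely. Over the 9 group means of log2 signal the highest Pearson correlations with Hspa5 were those of Tspan5 (0.991), Psat1 and Tmem189 (both 0.985), Sntb2 (0.979) and Hip1 (0.978). With Ddit3 they were Rimklb (0.830), Mc2r (0.806), Bace2 (0.804), Zfr2 (0.802) and Ryr3 (0.799). Among the members, Calr (0.97), Hsp90b1 (0.92) and Pdia4 (0.91) were most like Hspa5 and Dnajb9 (-0.86) least, while the values for Ddit3 with the other nine lay between -0.25 and 0.16.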

How the data were processed

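The authors deposited 1 MAS5 signal per probe set and array (an intensity on a linear scale, MAS5 per the submitters' processing notes). Its version was not given in the sources used here. Trimmed by 2% at either end, the deposited means lay between 150.04 and 150.06. Signals were multiplied so that this mean became 500, which does not alter ratios within an array, and log2(signal + 32) was taken, which understates changes of dim genes. The brightest of a gene's probe sets stood for it, and 11164 of 12393 genes entered the test, those reaching a signal of 100 on 2 or more arrays. Probe sets with several symbols were left out. limma 3.58.1 in R 4.3.3 fitted all 23 arrays in 9 groups (14 residual degrees of freedom, intensity trend) with Benjamini-Hochberg adjustment over all genes within each of 22 comparisons. The threshold was an adjusted p of 0.05, and "rose", "fell", "higher" and "lower" mean past it. SE and intervals are limma's. Signals of different probe sets are not comparable in level. The number of arrays limits the precision.

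Groups came from titles and descriptions. The title alone gives the genotype of control day 4 replicate 2. The members, lists and alternatives were chosen with earlier results of these data known. Named are all members, the genes of each list with the 3 largest changes without overlap of arrays, the 5 genes most like Hspa5 and Ddit3, and genes said to be chosen after their values were seen (Canx, Creld2, Dnajc3 and Acacb). No 2 arrays were identical. The fit was tested on simulated data. Promoters were read from RefSeq tables, 1 for each member. Figures were drawn with matplotlib 3.10.9.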

Additional observations from a re-analysis of the deposited data

Results flagged for a closer look

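These differences between genotypes in the injury change passed their own test. Herpud1 fell more in emerin KO than in control from day 0 to day 3, by a log2 difference of -1.16. This holds for the brighter of its 2 probe sets; by 1448185_at the difference was -0.03, and with the mean of both it was -0.60 (adjusted p = 0.28). Hspa5 rose more in emerin KO than in control, by 0.96 to day 3 and by 1.01 to day 4. By the brighter Hspa5 probe set, 1416064_a_at, the arrays on days 3 and 4 overlapped between the genotypes, and the day 0 arrays did not. By 1427464_s_at the emerin KO arrays lay below those of control without overlap on days 0, 3 and 4. With the mean of both the difference was 0.86 to day 3 and 0.90 to day 4 (adjusted p = 0.051 and 0.073). The emerin KO arrays of day 3, and 2 of those of day 4, had Gapdh ratios of 2.89 to 6.09, and the part of RNA quality in these differences was not tested beyond the covariate values given with the results.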

How the results depend on the processing

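Of 67 calls of a member in a comparison, 37 held under every alternative run, and of 7650 single values under an alternative 7474 kept sign and side of the threshold, 121 lost their call, 53 gained one and 2 reversed. Both reversals were of Xbp1 with the Gapdh ratio as a covariate: Xbp1, emerin KO minus control, day 3 became 0.43 and Xbp1, emerin KO minus lamin A/C KO, day 4 became 0.082. The cause was not tested. Median scaling moved the median of all genes from 0.085 to -0.020 for control day 3 minus day 0 and ended the Xbp1 call there and the Calr call on day 4.

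The injury counts from day 0 stayed within 1.5 times of those reported under every alternative run that leaves out no single array. Other counts moved. For lamin A/C KO day 4 minus day 3 (1 reported) the count was 2 with quantile normalization or without the arrays above a Gapdh ratio of 2, 3 with only the compared groups, and 0 with median scaling, the mean of all probe sets or the Gapdh covariate. With only the compared groups, emerin KO minus control went to 0 on day 0 and on day 4, where fewer arrays estimate the spread. With the Gapdh covariate, emerin KO minus control and emerin KO minus lamin A/C KO went to 0 on days 3 and 4. Without the arrays above a ratio of 2, both went to 0 on day 4, and comparisons with emerin KO day 3 could not be made. With median scaling 1 call was left on day 4 between emerin KO and control, and the mean of all probe sets left 1 for emerin KO minus lamin A/C KO on day 3. The emerin KO change minus control change on day 3 went to 0 with median scaling, the mean of all probe sets, no intensity trend, only the compared groups or the Gapdh covariate. On day 4 it went to 0 with those, without the low signal filter, with each probe set tested on its own, without the arrays above a ratio of 2, and with the replicate block.

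Replicate numbers from the titles are not stated to pair the arrays. Over 82 pairs with the same number the correlation of deviations ran from -0.30 to 0.39, and 26 were over 0.1. Pairs with different numbers were not compared, and between groups of 2 arrays both numbers give the same value. These correlations therefore cannot decide whether the numbers pair arrays. Apart from that day 4 count, which went from 1 to 0, the replicate block moved no count of members by over 1.5 times. It brought Xbp1 in emerin KO past the threshold on days 3 and 4 (0.57 and 0.55).

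Leaving out 1 array at a time gave these ranges of members past the threshold. In control they were 6 to 9 (day 3), 7 to 8 (day 4) and 0 to 0 (day 4 minus day 3), in emerin KO 8 to 9, 8 to 10 and 0 to 0, and in lamin A/C KO 7 to 8, 5 to 7 and 0 to 1. Emerin KO minus control gave 1 to 2, 2 to 3 and 1 to 3 on days 0, 3 and 4, emerin KO minus lamin A/C KO 3 to 5, 2 to 3 and 2 to 4, and lamin A/C KO minus control 0 throughout. The emerin KO change minus control change gave 0 to 3 on day 3 and 0 to 1 on day 4, and that of lamin A/C KO 0. Groups of 2 arrays limit the precision throughout.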
